A study of Macaca fascicularis with 24 samples.

Results

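The 10 genes of elastic fibre assembly described here were read in RNA of the thoracic aorta, from old and from young cynomolgus macaques of both sexes: ELN, FBN1, MFAP4, EMILIN1, LTBP3, FBLN1, FBLN5, LOX, LOXL1 and LOXL2. Every probe set (the group of short probes that reads 1 transcript) whose annotation gives 1 of these symbols alone was taken. This gave 20 of the 22215 probe sets that are not array controls, and all 10 genes were found. A probe set was tested if its mean over all arrays reached the median of such means; 15 of the 20 passed this filter, with at least 1 for each gene, among 11108 tested in all.

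Elastic fibres give the aortic wall its recoil. Tropoelastin, the product of ELN, is secreted by smooth muscle cells, coacervates, and is laid onto a scaffold of fibrillin microfibrils, with fibulins, EMILIN1 and MFAP4 at the interface. Lysyl oxidases then join tropoelastin monomers through lysine-derived cross-links. Most arterial elastin is deposited in development and early life and is lost very slowly, so transcript levels in an adult aorta and the amount of fibre in its wall are separate quantities.

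The study hybridised aortic RNA of Macaca fascicularis to 24 arrays designed for human transcripts, 6 for each age and sex. The labels give a mean age of 20.0 years for old males, 6.6 years for young males, 21.2 years for old females and 7.2 years for young females, with no age for single animals, and name no genotype or treatment. In 3 pairs of arrays (numbers 1 and 4 of the old females, and numbers 3 and 4 both of the young males and of the young females) the log2 difference had an SD no greater than 0.38, while the remaining 273 pairs began at 0.43. Each such pair was averaged under its lower number. The comparison then held 6 old and 5 young males and 5 samples for each age in females. Nothing in the labels says that the replicates are separate animals, so the tests measure the spread between these samples, which may be technical.

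Of the 21 samples, 6 stood apart from the rest: old males 2 and 4, young male 1, old females 2 and 6 and young female 3. Their median correlation with the other arrays was 0.81 to 0.83, against 0.88 to 0.93 in the other 15 samples. Their log2 ratio of 3′ to 5′ actin signal, which rises as RNA degrades, lay between 0.78 and 1.73, that of the others between -0.25 and 1.15. These 6 are called divergent samples below. The limit on that correlation, 0.85, was set with their values known. Each group holds some of them, 2 of 6 old males and 1 of 5 young males, 2 of 5 old females and 1 of 5 young females. Values are normalised log2(intensity + 16) unless stated otherwise. The 11 smooth muscle markers on the array, the defining markers of the medial layer, averaged 12.01 to 14.22 over the 21 samples.

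No member passed the test for age in either sex. In limma, with p-values adjusted over all 11108 probe sets, 0 of the 15 member probe sets passed at 0.05 in males, where 0.0180% of all tested probe sets did. The count was also 0 in females, in the average of the sexes and in the difference between the sexes' age effects, where 0% of all tested probe sets passed. The smallest adjusted p of a member was 0.984, for the average of the sexes. At an unadjusted limma p below 0.05, members with lower means in old animals numbered 0 in males, 1 in females (FBLN1) and 2 in the average of the sexes (FBN1 and LOX). The share of all tested probe sets doing so was 1.81% in males, 1.81% in females and 2.75% in the average, and no member was higher at that level. In whole-aorta RNA, fewer cells of a type and less RNA per cell cannot be told apart.

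The means themselves lay mostly on 1 side. Of the 15 tested member probe sets, 14 had a lower mean in old than in young males, where 52.4% of all tested probe sets did. In females 14 of 15 did so, where the share was 54.5%, and in the average of the sexes 15 of 15, where it was 54.0%. These 15 probe sets read 10 genes in the same samples, so their signs are not independent of one another. The genes were also chosen with earlier results of these data known. With the brightest probe set for each gene, the median log2 change of old against young was -0.66 in males and -0.44 in females, beside -0.02 and -0.03 over all tested probe sets. For no member did every old sample lie below every young one, an arrangement found in 0.351% of all tested probe sets in males and 0.180% in females.

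**Figure D1:**
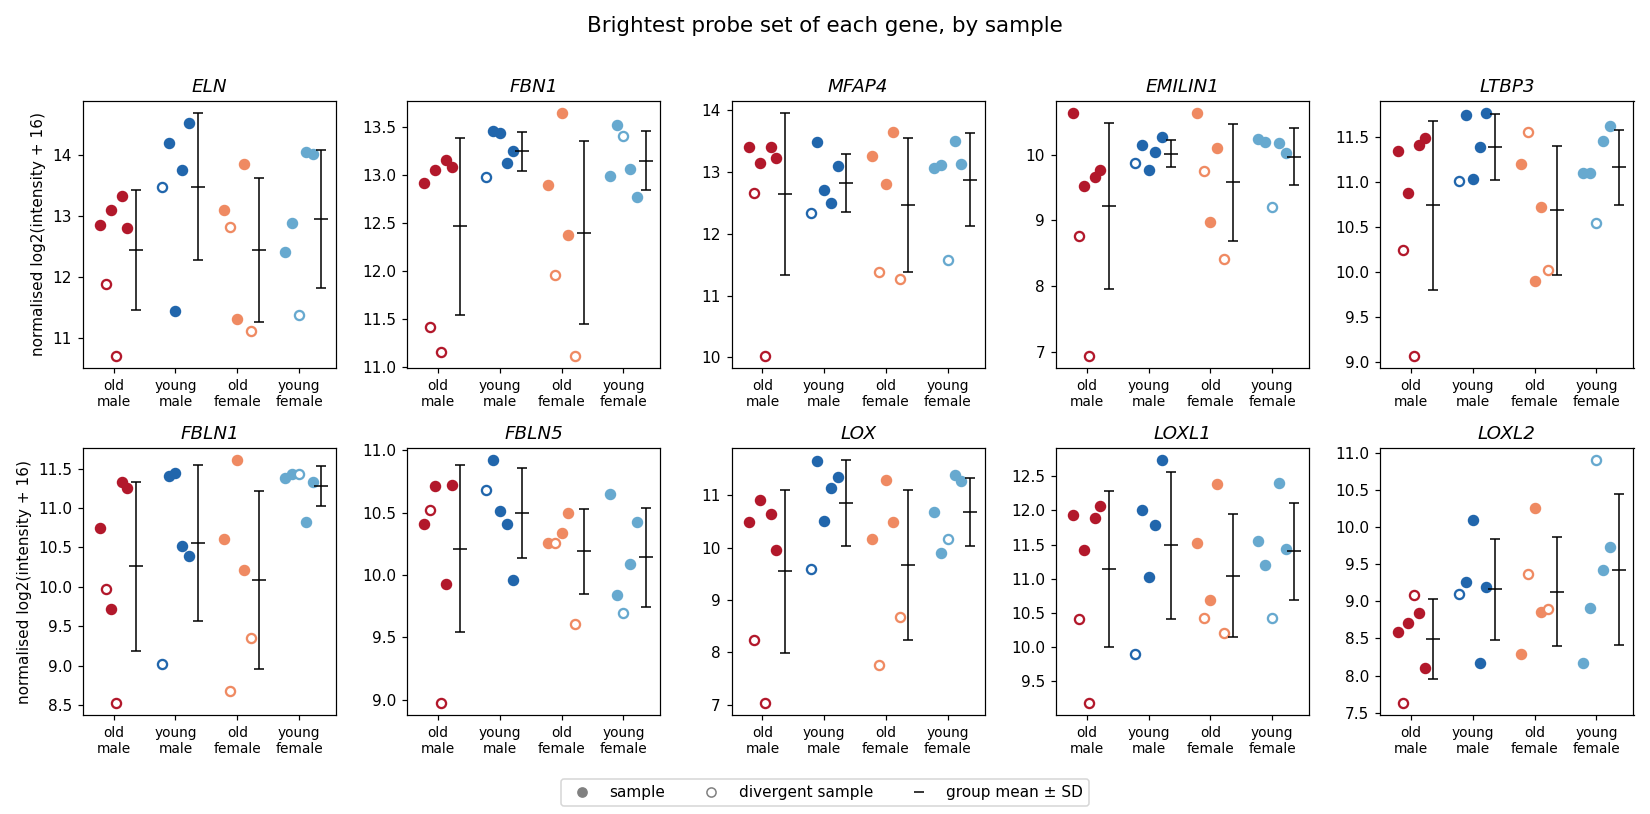
Normalised log2(intensity + 16) of the brightest probe set of each gene (y axis) in the 21 samples, by age and sex (x axis). Open circles are the 6 divergent samples and bars are group means with SD. For ELN, FBN1, MFAP4, EMILIN1, LTBP3, FBLN1, FBLN5, LOX and LOXL1 the lowest old male is a divergent sample, old male 4, and the old and young groups overlap for each gene.

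ELN encodes tropoelastin, the soluble precursor of the fibre core. Its deposited intensity ran from 1572 to 21392 over the 24 arrays, around a median of 7737. On its brighter probe set, 212670_at, old males ran from 10.71 over a median of 12.83 to 13.32, against 13.48, 14.20, 11.44, 13.75 and 14.52 in young males. All 6 old males lay below the young male median of 13.75, but young male 3, at 11.44, lay below all but 1 of them. The mean was 12.44 ± 0.98 in old males and 13.48 ± 1.21 in young males (SD, n = 6 and 5), a log2 change of -1.03 ± 0.61 (SE; exact permutation test over samples, two-sided p = 0.152).

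Old females read 13.09, 12.81, 11.32, 13.85 and 11.12 for the same ELN probe set, against 12.41, 12.89, 11.37, 14.03 and 14.01 in young females. High and low samples occurred at both ages, with a change of -0.50 ± 0.64 (SE; exact permutation p = 0.50). It depended on single samples, at -0.17 without old female 6 and -0.90 without young female 3. The male change was -0.69 without old male 4 and -1.54 without young male 3. Without all 6 divergent samples, the change on this probe set was -0.46 ± 0.61 in males and -0.52 ± 0.45 in the average of the sexes, which had been -0.77 ± 0.44 with them. From the lowest group mean to the highest, old females and old males stood at 12.44 each, young females at 12.94 and young males at 13.48. Each step in that order was smaller than the SD of the groups on either side.

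A second ELN probe set, 216269_s_at, had a narrower range, 8.44 to 10.18 over all samples. The old male mean was 9.31 ± 0.28 and the young male mean 9.73 ± 0.44, a log2 change of -0.41 ± 0.26 (SE). Its change did not shrink without the divergent samples: the male change was then -0.61 ± 0.31 and that averaged over the sexes -0.43 ± 0.23 (limma adjusted p = 0.754). In females the change of this probe set was -0.13 ± 0.27 with all samples and -0.24 ± 0.33 without the divergent ones (SE). Its sign there rested on single samples, at 0.10 without old female 3. Over the 15 other samples, its deviations from the group means followed those of the brighter ELN probe set at r = 0.87.

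FBN1 encodes fibrillin-1, the backbone of the microfibril and the gene mutated in Marfan syndrome, in which the aortic root dilates. On 202766_s_at, old males ran from 11.15 over a median of 12.98 to 13.15, against 12.98, 13.45, 13.43, 13.12 and 13.25 in young males. Old females read 12.89, 11.96, 13.65, 12.37 and 11.11, against 12.99, 13.51, 13.41, 13.06 and 12.77 in young females. Young animals were tightly grouped in both sexes, and the old groups carried the low values, namely those of old males 2 and 4 and old females 2 and 6, all divergent samples, and of old female 5.

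The FBN1 change was -0.79 ± 0.39 in males and -0.75 ± 0.41 in females (SE), and -0.77 ± 0.28 averaged over the sexes (limma adjusted p = 0.984; exact permutation p = 0.019). That average kept an unadjusted limma p below 0.05 in each of 21 fits that left out 1 sample, at -0.92 to -0.61. Without the 6 divergent samples it was -0.19 ± 0.16, at an unadjusted p above 0.05. The fainter FBN1 probe set, 202765_s_at, had -0.38 ± 0.48 in males and -0.41 ± 0.50 in females, and followed the brighter one at r = 0.37 over the 15 other samples.

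MFAP4 is a microfibril-associated glycoprotein that binds elastin and fibrillin. Old males ran from 10.03 over a median of 13.18 to 13.40, against 12.33 to 13.48 in young males, and the low end was old male 4 alone. The change in males was -0.18 ± 0.54 with that sample and 0.35 without it, so its sign rested on 1 array. Old females read 11.27 to 13.64, against 11.57 to 13.50 in young females, with divergent samples at the bottom of both groups. Averaged over the sexes the change was -0.29 ± 0.39 with all samples and 0.19 ± 0.15 without the divergent ones.

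EMILIN1 is a glycoprotein at the junction of elastin and microfibrils that also restrains the processing of the TGF beta precursor. Old male 4 read 6.94, far below the other old males, whose lowest was 8.76, while young males lay between 9.77 and 10.27. The change was -0.80 ± 0.47 in males (SE), but -0.35 without old male 4. In females it was -0.39 ± 0.49, with old females at 8.42 to 10.64 and young females at 9.20 to 10.24. Without the divergent samples the average over the sexes was -0.20 ± 0.22.

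LTBP3 encodes a latent TGF beta binding protein, of the fibrillin superfamily, which tethers latent TGF beta in the matrix. Old males ran from 9.07 over a median of 11.12 to 11.49, against 11.01, 11.75, 11.04, 11.40 and 11.77 in young males. Old females read 11.21, 11.57, 9.91, 10.73 and 10.03, against 11.10, 11.10, 10.55, 11.46 and 11.63 in young females. The lowest values were again in the old groups, and among them old female 3, at 9.91, was no divergent sample. Its log2 ratio of 3′ to 5′ actin signal, 1.15, was however the highest of the other 15 samples and lay within the divergent range.

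The LTBP3 change was -0.65 ± 0.38 in males, -0.48 ± 0.40 in females and -0.57 ± 0.27 in the average of the sexes (SE; exact permutation p = 0.0596). The male change was -0.31 without old male 4, and the female change -0.29 without old female 3. Over the 21 fits without 1 sample the average ran from -0.68 to -0.40. Without the divergent samples it was -0.46 ± 0.19 (limma adjusted p = 0.665), and its probe set was then the 1 of 15 at an unadjusted limma p below 0.05 in that contrast, where 3.93% of all tested probe sets were lower at that level. By sex, the change was then -0.20 ± 0.25 in males and -0.71 ± 0.27 in females (SE). The old females left were 3, among them old female 3.

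**Figure D2:**
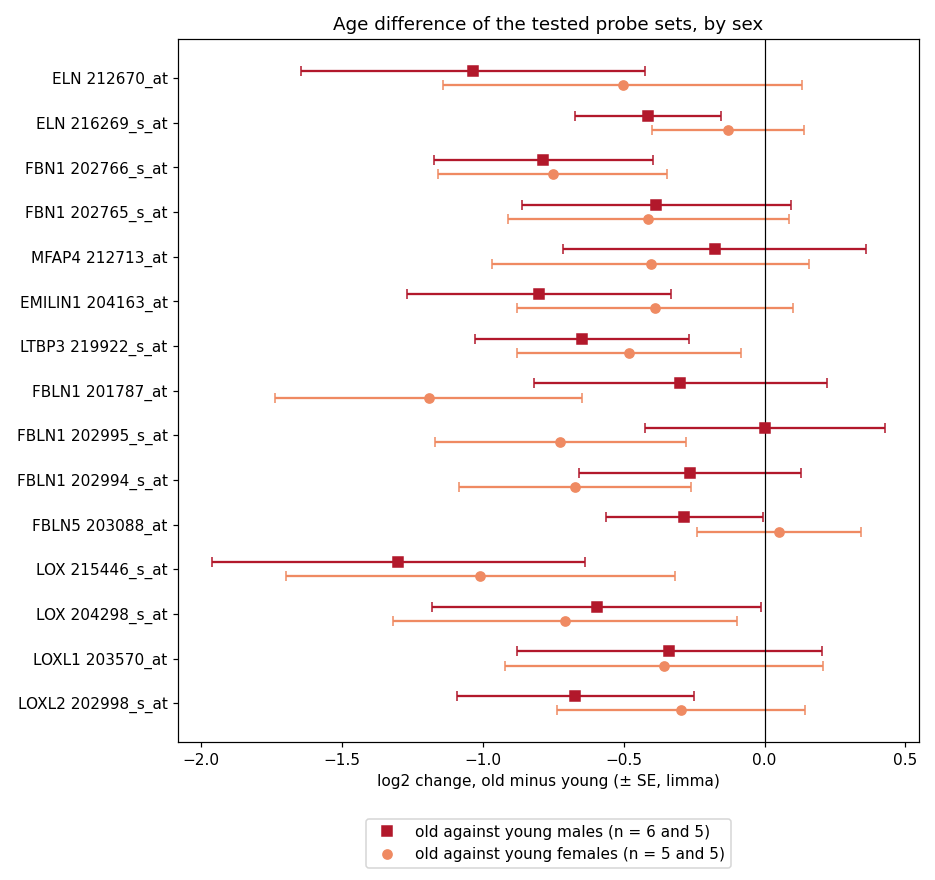
Log2 change of old against young (x axis, ± SE from limma) for the 15 tested probe sets of the 10 genes (y axis), in males (squares) and females (circles). The changes run from -1.30 to 0.002 in males and from -1.19 to 0.05 in females, and none passed the adjusted threshold.

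FBLN1 encodes fibulin-1, which binds elastin and fibronectin and lies in the core of elastic fibres. Its probe set 201787_at, annotated from the transcript of isoform C, read 10.60, 8.67, 11.61, 10.21 and 9.35 in old females, against 11.38, 11.43, 11.43, 10.83 and 11.34 in young females. Of the 5 old females, 4 lay below every young female, and old female 3 lay above them all. The change was -1.19 ± 0.54 (SE; limma adjusted p = 0.9996; exact permutation p = 0.0556), and -0.44 ± 0.40 without the divergent samples.

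In males the same FBLN1 probe set ran from 8.52 over a median of 10.36 to 11.33 in old animals, against 9.02 to 11.45 in young ones, with a change of -0.30 ± 0.52. Its sign rested on 1 sample, since it was 0.05 without old male 4 and -0.68 without young male 1. The age effects of the sexes differed by 0.89 ± 0.75 (male minus female, SE), which did not pass as an interaction (limma adjusted p = 0.9999). Of the other tested FBLN1 probe sets, 202995_s_at, from the transcript of isoform D, had 0.002 ± 0.43 in males and -0.72 ± 0.44 in females, and 202994_s_at had -0.26 ± 0.39 and -0.67 ± 0.41. All 3 tested probe sets thus had their lower means in old females. The probe sets annotated from isoforms A and B, 207835_at and 207834_at, were too dim for the filter, at 5.67 to 8.49 and 4.84 to 7.87. Fitted without the filter, 207835_at had 0.76 ± 0.50 in males and 0.18 ± 0.53 in females (SE). For 207834_at these were -0.34 ± 0.46 and 0.50 ± 0.49.

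FBLN5 encodes fibulin-5, which binds tropoelastin and integrins and guides fibre assembly. Its change was the smallest of the 10 genes in females and in the average of the sexes, while in males that of MFAP4 was smaller. The mean was 10.21 ± 0.67 in old males and 10.50 ± 0.36 in young males, and 10.19 ± 0.34 in old females and 10.14 ± 0.40 in young females. Its change averaged over the sexes was -0.12 ± 0.20 (SE; exact permutation p = 0.591), and 0.01 without old male 4.

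LOX, lysyl oxidase, is a copper enzyme that oxidises lysines of elastin and collagen. On 215446_s_at, old males ran from 7.03 over a median of 10.22 to 10.91, against 9.58, 11.64, 10.51, 11.14 and 11.35 in young males. Old females read 10.16, 7.75, 11.28, 10.49 and 8.67, against 10.69, 9.90, 10.16, 11.38 and 11.27 in young females. All 6 old males lay below the young male median of 11.14, and the values below 9 belonged to old males 2 and 4 and old females 2 and 6, all divergent samples.

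The LOX change was -1.30 ± 0.66 in males, -1.01 ± 0.69 in females and -1.16 ± 0.48 in the average (SE; limma adjusted p = 0.984; exact permutation p = 0.0362). It was the largest change of the 10 genes in that average. Leaving out 1 sample at a time gave -1.36 to -0.90, with an unadjusted limma p below 0.05 in 20 of 21 fits, and leaving out the divergent samples gave -0.41 ± 0.25. The male change was -0.80 without old male 4, and the female change -0.53 without old female 2. Without the divergent samples these were -0.66 ± 0.34 in males and -0.17 ± 0.37 in females. From low to high, the group means were 9.54 in old males, 9.67 in old females, 10.68 in young females and 10.84 in young males, and the step of 1.01 between old and young females was smaller than the SD of 1.43 in old females. On the other tested LOX probe set, 204298_s_at, the average change was -0.65 ± 0.42, or -0.12 without the divergent samples. The third, 213640_s_at, lay under the filter at 4.86 to 8.82.

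LOXL1 is a lysyl oxidase that fibulin-5 anchors to sites of elastin deposition in the mouse. Old males averaged 11.15 ± 1.14 and young males 11.49 ± 1.08, and old females 11.04 ± 0.90 and young females 11.40 ± 0.71. The change averaged over the sexes was -0.35 ± 0.39 (SE), and -0.09 ± 0.27 without the divergent samples. Each of those 6 samples, at 9.18 to 10.42, lay below each of the other 15, at 10.68 to 12.73. The share of all tested probe sets with such a separation was not counted.

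LOXL2, a further lysyl oxidase, known for cross-linking collagen IV, behaved otherwise. Its probe set 202998_s_at read 7.63 to 9.09 in old males around a median of 8.64, against 9.10, 9.25, 10.09, 8.17 and 9.20 in young males. All 6 old males lay below the young male median of 9.20, with young male 5 low among the young. The male change was -0.67 ± 0.42 with all samples and -0.62 ± 0.44 without the divergent ones (SE; exact permutation p = 0.0952 with all). In females it was -0.30 ± 0.44, but 0.07 without young female 3, which at 10.90 was the highest of all samples. The other LOXL2 probe sets, 202997_s_at and 202999_s_at, stayed under the filter at 4.70 to 7.16 and 4.95 to 8.28. Fitted without the filter, 202997_s_at had -0.66 ± 0.38 in males and 0.09 ± 0.39 in females (SE). The fit of 202999_s_at gave 0.90 ± 0.47 in males, opposite in sign to the bright probe set, and -0.23 ± 0.50 in females.

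**Figure D3:**
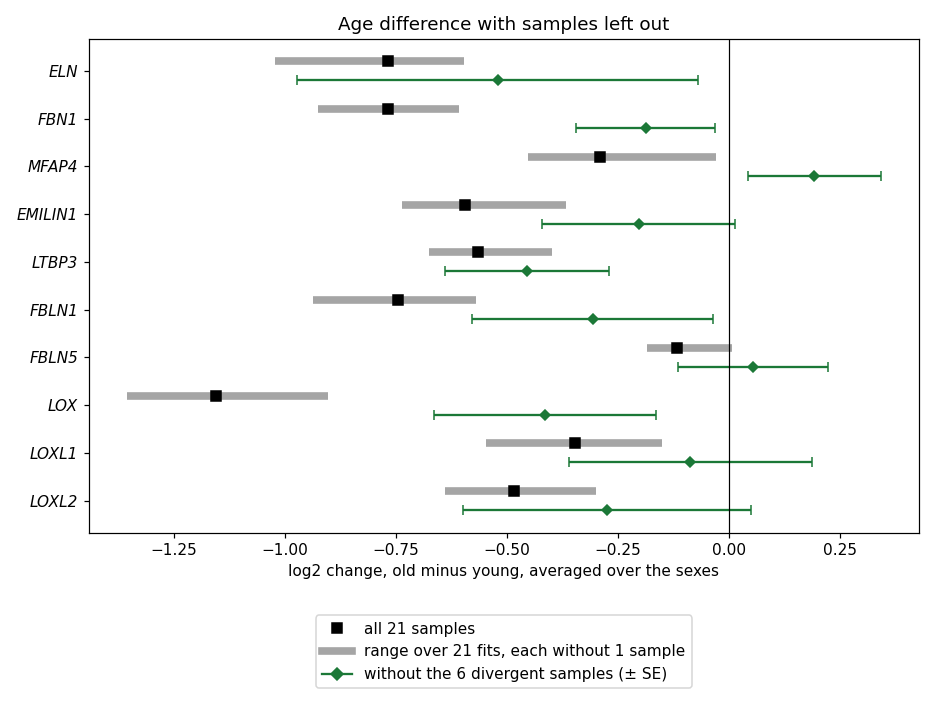
Log2 change of old against young averaged over the sexes (x axis) for the brightest probe set of each gene (y axis). Black squares use all 21 samples, grey bars span the 21 fits that each leave out 1 sample, and green diamonds with SE leave out the 6 divergent samples. FBN1 is at -0.77 with all samples and -0.19 without the divergent ones, LOX at -1.16 and -0.41, and LTBP3 at -0.57 and -0.46.

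No member passed the adjusted threshold with all samples or in any of the 21 fits that left out 1 sample. By sign alone, each of the 10 genes except FBLN5 kept a lower mean in old animals in the average of the sexes in all 21 fits, although MFAP4 came as close to 0 as -0.03. Old male 4 weighed most: without it the median change over the 10 genes in males was -0.33 in place of -0.66, with 7 of 10 genes lower. Without old female 6 the median in females was -0.21 in place of -0.44, and without old female 5 it was -0.69. Without all 6 divergent samples the medians were -0.19 in males and -0.14 in females, with 9 and 7 of 10 genes lower.

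The mean of the 10 genes was lower in the divergent samples than in the rest. The divergent samples were defined by their correlation over all tested probe sets, and the share of these that set them apart was not counted. The mean over the 10 brightest probe sets was 9.07 to 10.87 in the 6 divergent samples and 11.08 to 11.83 in the other 15. The medians were 8.46 in the divergent samples and 10.69 in the others for LOX, 9.18 and 11.25 for FBLN1, and 11.47 and 13.15 for MFAP4. These genes differed by more than ELN, with 11.62 and 13.09, and LOXL1, with 10.31 and 11.78, by about as much as ELN. LOXL2 was the exception, at 9.10 in the divergent samples and 8.85 in the others. The divergent samples also read higher hybridisation controls, 12.52 to 13.97 against 10.90 to 11.84. Their smooth muscle marker mean was 12.01 to 13.50 against 13.31 to 14.22, and their adipocyte marker mean, over 8 tested genes, 9.75 to 11.77 against 7.91 to 10.80. The part of these measures in the age values of the 10 genes was not tested beyond fits with the actin ratio, the smooth muscle mean or the adipocyte mean as a covariate, and no fit used the hybridisation controls.

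**Figure D4:**
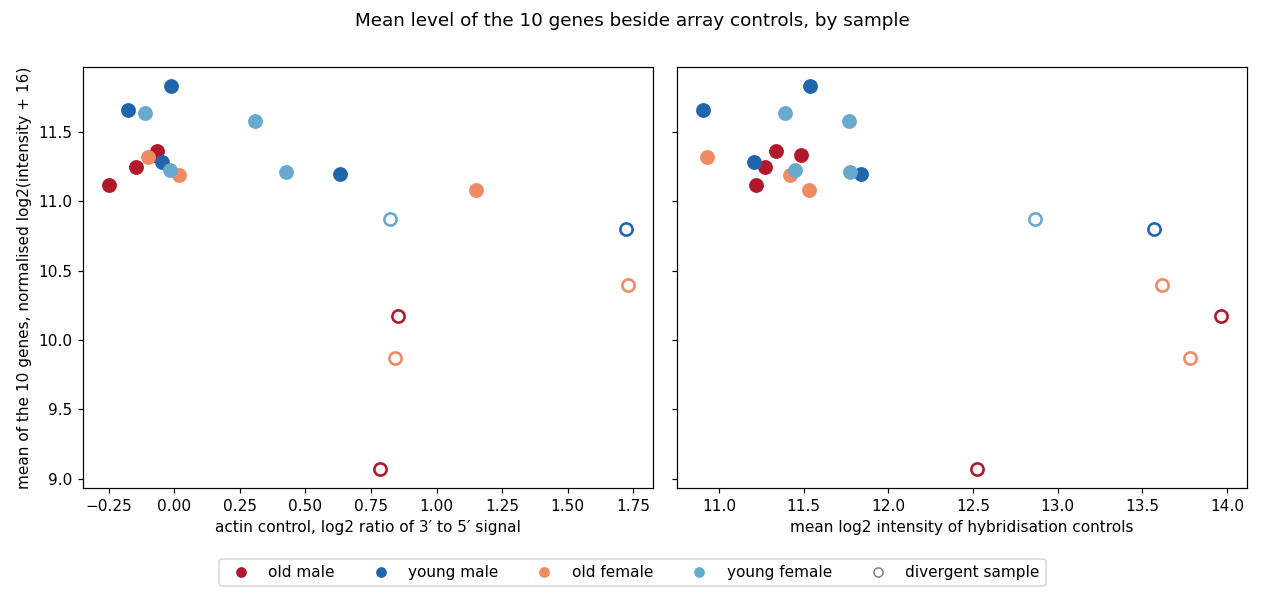
Mean of the 10 genes in each sample (y axis, normalised log2(intensity + 16)) beside the log2 ratio of 3′ to 5′ actin signal (left) and the mean log2 intensity of the hybridisation controls (right). Open circles, the 6 divergent samples, lie at 9.07 to 10.87 and filled circles at 11.08 to 11.83.

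With the actin ratio as a covariate, the median change over the 10 genes was -0.72 in males and -0.17 in females, and 9 member probe sets in males had an unadjusted limma p below 0.05, where 4.08% of all tested probe sets did so with a lower mean. In females 0 members were at that level (2.27% of all tested probe sets) and in the average 2 (3.48%). Among the 9 were LOX (-1.63) and ELN (-1.27), with a smallest adjusted p of 0.410 over the members. With the smooth muscle marker mean as a covariate, the medians were -0.62 in males and -0.04 in females, where 5 of 10 genes were lower. With the adipocyte marker mean they were -0.38 and -0.42. The markers' own levels overlapped between the ages: the smooth muscle mean was 13.41 to 14.22 in old males and 13.50 to 13.97 in young males, and 12.01 to 14.004 in old females and 12.52 to 14.05 in young females. The adipocyte mean was 8.31 to 11.77 in old males and 7.91 to 11.47 in young males, and 8.46 to 10.84 in old females and 8.81 to 10.80 in young females. All 11 smooth muscle genes had a lower mean in old females (median -0.36), and 8 of 11 in old males (median -0.13). Of the 8 adipocyte genes, 7 had a higher mean in old males (median 1.37) and 5 in old females (median 0.06). In either sex, 0 genes of these 2 lists passed limma's adjusted threshold. At an unadjusted p below 0.05, the counts were 0 of the 11 smooth muscle genes in each sex. Of the 8 adipocyte genes they were 3 in males and 0 in females. In either direction, 315 of all 11108 tested probe sets were at that level in females and 373 in males. The mean of the 6 tested fibroblast markers was 11.86 to 12.75 in old males and 12.38 to 13.19 in young males, and 11.997 to 13.49 in old females and 12.56 to 13.15 in young females. Of these 6 genes 4 had a lower mean in old males (median -0.36) and 5 in old females (-0.28), with 0 past the adjusted threshold. The collagen I genes COL1A2 (-0.96 ± 0.23, SE) and COL1A1 (-1.11 ± 0.39) were lower at an unadjusted p below 0.05 in males, where 1.81% of all tested probe sets were. DPT (0.26 ± 0.28) and DCN (0.24 ± 0.20) had higher means in old males. The part of fibroblast content in the members' values was not tested.

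Within groups, the 10 genes did not vary as 1 block. Deviations from the group means were compared over the 15 other samples, as a description. ELN, LOXL1, LTBP3, MFAP4 and EMILIN1 went together, with r from 0.45 to 0.81 over their 10 pairs (Spearman's rho 0.475 to 0.85). ELN with LOXL1, the highest pair, remained at 0.64 without young male 3 and old female 3, the 2 samples farthest from the ELN median. ELN with EMILIN1, the lowest, was 0.03 without them. FBN1 ran against these 5 genes, at -0.61 to -0.37 (rho -0.45 to -0.16), and with FBLN1, at 0.59. Without young male 3 and old female 3, FBN1 with ELN was at -0.45. The other FBN1 pairs were read without old females 3 and 5, the 2 samples farthest for FBN1. They were then -0.33 to 0.20 with LOXL1, LTBP3, MFAP4 and EMILIN1, positive for MFAP4, and 0.36 with FBLN1. Old female 3, with an actin log2 ratio of 1.15, had the highest FBN1 value, 13.65, and an ELN value of 11.32. These 2 sets were recognised after the 45 pairs were seen. The brightest probe set of each gene was used. Over the same 15 samples, the brightest FBN1 probe set followed the fainter one at 0.37. The brightest FBLN1 one followed 202995_s_at at 0.48 and 202994_s_at at 0.64. The pairs were not read on these other probe sets.

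**Figure D5:**
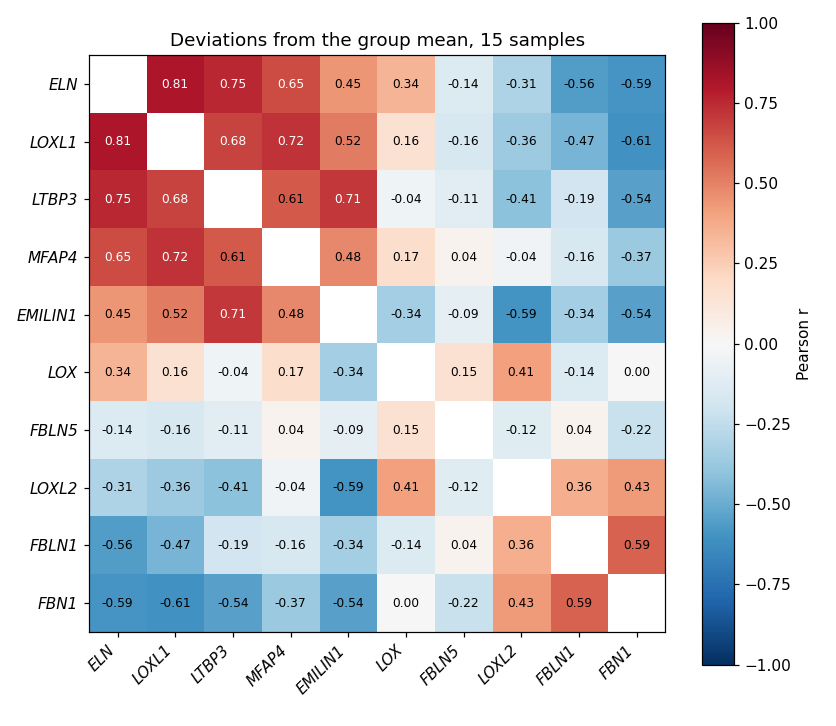
Pearson r between the brightest probe sets of the 10 genes over the 15 samples that are not divergent, after each group's mean was subtracted; rows and columns are genes. ELN, LOXL1, LTBP3, MFAP4 and EMILIN1 form a positive block with r from 0.45 to 0.81, and FBN1 is at -0.61 to -0.37 against them.

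Among 6942 other genes, those most like ELN over the same 15 samples were HDAC6 (r = 0.90), SPPL2B (0.90) and IL11RA (0.88). For FBN1 they were CLINT1 (0.92), PUS3 (0.91) and WIPI1 (0.91), and for LOX they were PIK3C2A (0.91), ABRAXAS2 (0.89) and GGH (0.88). None of the 9 is a structural matrix gene. All points share the arrays and their normalisation, and these are the highest of many correlations.

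Other genes of the pathway were read from lists, with the brightest tested probe set for each gene. Of 12 genes listed as microfibril and fibulin partners, among them MFAP1, 12 had a lower mean in old males and 10 in old females, with medians of -0.24 and -0.15. Over all tested genes, 52.0% had a lower mean in old males and 53.7% in old females. The 3 partners with the smallest p averaged over the sexes were MFAP1 (-0.31 ± 0.15, SE), a nuclear splicing protein despite its name, MFAP2 (-0.46 ± 0.28), which binds fibrillin and tropoelastin, and MFAP5 (-0.40 ± 0.31), its relative. Among 8 cross-linking and processing genes, 6 were lower in each sex, led by BMP1 (-0.42 ± 0.25), which releases the LOX propeptide, PLOD2 (-0.27 ± 0.21), a collagen lysine hydroxylase, and FKBP10 (-0.70 ± 0.55), a collagen chaperone.

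Of 18 genes of TGF beta signalling, 9 had a lower mean in old males and 14 in old females. LTBP1, LTBP2 and LTBP4 were counted both here and among the microfibril and fibulin partners. TGFB2, the ligand with the smallest p, averaged 9.28 in old males and 10.14 in young males, and 8.74 in old females and 9.50 in young females, a change of -0.80 ± 0.25 averaged over the sexes (SE, limma adjusted p = 0.984). SKI (-0.53 ± 0.30), a repressor of the pathway, and SMAD3 (-0.19 ± 0.15), its signal transducer, came next. The 8 receptor genes were led by ITGB1 (-0.23 ± 0.08) and ITGAV (-0.38 ± 0.15), subunits of integrins that bind matrix proteins, ahead of ITGA8 (-0.19 ± 0.26), with 7 of 8 lower in the average. Elastases and their inhibitors were split, with 6 of 13 lower in the average: MMP2 (-0.41 ± 0.26) and the inhibitor TIMP3 (-0.31 ± 0.22) were lower, and CTSS, the elastolytic cathepsin S, was higher (0.36 ± 0.24). In these 5 lists 0 genes passed limma's adjusted threshold in males, females or the average. At an unadjusted p below 0.05 in the average, 1 of 18 TGF beta genes (TGFB2) and 2 of 8 receptor genes (ITGB1 and ITGAV) had lower means, and 0 genes of the other 3 lists, where 2.75% of all tested probe sets did. Within 1 sex, 3 genes were higher in old animals at that level: ENG, a TGF beta co-receptor, in males (0.68 ± 0.24, SE), and the ligand TGFB3 (0.51 ± 0.20) and the elastolytic MMP9 (0.95 ± 0.42) in females. Lower at that level were TGFB2 (-0.85 ± 0.35) and SMAD3 (-0.45 ± 0.20) in males and ITGB1 (-0.30 ± 0.12) in females. Of all 11108 tested probe sets, 373 in males and 315 in females were at that level in either direction. These genes by sex were named after their values were seen.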

How the data were processed

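The authors deposited 1 linear intensity per probe set and array; the summarising and scaling of the probes are not given in the sources used here. Total RNA was labelled with biotin, per the labels' protocols. The values were converted to log2(intensity + 16), and as the medians of the deposited arrays spanned 0.81 on that scale, the arrays were quantile normalised. The 62 control probe sets were left out. Symbols came from the platform annotation. Human probes read monkey RNA here, so mismatches can lower a probe set on all arrays alike. The pseudocount understates changes of dim probe sets, and the number of arrays limits the precision.

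A mean per group was fitted to 21 samples with limma 3.58.1 in R 4.3.3 (empirical Bayes, intensity trend), with p-values adjusted by Benjamini-Hochberg over all 11108 tested probe sets. The fit was run on simulated data with independent noise in each probe set and no divergent samples. That run does not show how the fit behaves with samples such as the divergent ones. Exact permutation tests, 30 in all, were run on single values and not adjusted. The members and lists were chosen with earlier results of these data known. Named genes were the 10 members, the 3 genes most like ELN, FBN1 and LOX, and the 3 with the smallest p in each list. Alternatives changed the scaling, filter, pseudocount, weights, samples and covariates.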

Additional observations from a re-analysis of the deposited data

Results flagged for a closer look

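Of 60 combinations of probe set and group, 5 held 1 sample far from the others, where chance gives about 1 in 20. Old male 4 read 10.03 for MFAP4, against 12.65 to 13.40 in the other old males. Old female 6 read 9.61 for FBLN5, against 10.25 to 10.50 in the other old females. Young female 3 read 9.20 for EMILIN1, against 10.03 to 10.24, and 11.57 for MFAP4, against 13.06 to 13.50 in the other young females. These 4 values belong to divergent samples. Young female 5, which is not divergent, read 10.83 for FBLN1 (201787_at), against 11.34 to 11.43 in the other young females.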

How the results depend on the processing

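The count of member probe sets past the adjusted threshold was 0 in males, females, the average of the sexes and the interaction under each of the 14 alternative fits and each of the 21 fits that left out 1 sample. At an unadjusted limma p below 0.05, members with a lower mean in old animals numbered 0 to 9 in males, 0 to 2 in females and 1 to 4 in the average over the 14 alternatives, where 1.15% to 5.23%, 1.40% to 3.21% and 1.98% to 3.93% of all tested probe sets did so. The median change over the 10 genes ran from -0.72 to -0.19 in males and from -0.61 to -0.04 in females over these alternatives. In the average it ran from -0.68 to -0.47 with 1 sample left out, and was -0.24 without the divergent samples, -0.43 with every array counted as a sample and -0.63 with arrays centred on their medians. The interaction median, -0.23, was positive in 4 alternatives, at 0.06 with array weights, 0.08 without the divergent samples, 0.20 with the adipocyte covariate and 0.19 with the replicate block. Of 140 single-gene changes under the alternatives, 8 in males, 10 in females and 4 in the average turned sign. Those of the average were FBLN5 and MFAP4 without the divergent samples (0.05 and 0.19), FBLN5 with the block (0.01) and MFAP4 with the smooth muscle covariate (0.06). Among all probe sets, 2 passed in males, against 0 with median centring, no filter, only the brightest 25% tested, a pseudocount of 64, no variance trend or the adipocyte covariate, 1 with the actin or the smooth muscle covariate, 3 without the divergent samples and 25 with array weights. Same-numbered samples deviated with r from -0.42 to 0.51 over 30 pairs, of which 14 were above 0.1, and 9 of 21 samples correlated best with their own number. As this was not so for every pair, the numbers were not taken to pair the samples in the main fit. Structure shared by some of the numbers was not tested beyond the fit that follows, and no chance level was worked out for the 9. With the replicate number as a replicate block, 0 member probe sets passed and the median in males was -0.33; number 4 is held by old male 4 alone, so the block takes that sample out.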
